A study of Homo sapiens with 24 samples.

Results

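NRF2 antioxidant genes were followed across 24 RNA-seq libraries of RCC4+VHL cells, a human clear cell renal carcinoma line in which a working VHL gene has been put back by stable transfection of a clone, so that HIF is again controlled by oxygen. The 9 genes were chosen by name, and all 9 are among the 23106 gene symbols of the count tables: NFE2L2, which encodes NRF2, its inhibitor KEAP1, and the target genes NQO1, HMOX1, GCLC, GCLM, TXNRD1, SRXN1 and ME1. Cells were kept in charcoal-stripped serum and then exposed for 6 h, with 6 replicates in each group. The control was normoxia (21% oxygen) with the vehicle DMSO at 0.1%. The other groups were normoxia with ITE at 100 nM, hypoxia (0.5% oxygen) with DMSO, and hypoxia with ITE. ITE is an indole ligand of AHR. Every group carries the same restored VHL, so no group shows the cells without it.

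NRF2 is a transcription factor that KEAP1 marks for degradation while the cell is not stressed. When electrophiles or oxidants modify KEAP1, NRF2 accumulates, pairs with small MAF proteins and binds antioxidant response elements (AREs). Its targets make glutathione, reduce thioredoxin and peroxiredoxins, supply NADPH and break down quinones and heme. The pathway meets both treatments: NQO1 and NFE2L2 are known AHR targets, and HMOX1 is a known HIF target in other cells.

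None of the 9 genes passed the test in any of the 6 comparisons, although all 9 passed the filter on low counts. The test was edgeR's quasi-likelihood test on all 24 libraries, with p-values adjusted over 11735 genes and a threshold of 0.05. At an unadjusted p under 0.05 there were 0 members with ITE in normoxia (1.46% of all genes), 1 in hypoxia with DMSO (9.47%), 3 in hypoxia with ITE (20.1%), 1 with ITE in hypoxia (9.56%), 2 with both stimuli against neither (19.3%) and 0 in the interaction (3.19%). With 9 members, such counts do not set the genes apart from this background. The differences that stood out were small. NFE2L2 was 1.21-fold higher with ITE in normoxia, with no overlap between the groups. TXNRD1 was 0.65-fold as high in hypoxia as in normoxia when ITE was present in both. SRXN1 was about 0.8-fold as high in hypoxia with either DMSO or ITE. NFE2L2 and TXNRD1 with ITE in normoxia each passed the test under at least 1 other way of fitting the counts. So did TXNRD1 in hypoxia with ITE and SRXN1 in hypoxia with DMSO, while SRXN1 in hypoxia with ITE passed under none of those run.

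The treatments themselves were visible in the same libraries. CYP1B1, the canonical AHR target, rose with ITE in normoxia from 56.7 ± 7.75 to 322 ± 53.0 CPM (counts divided by library size and edgeR's TMM factor; mean ± SD, n = 6), a log2 fold change of 2.51 with an adjusted p of 7.64e-09. NDRG1, a canonical HIF target, rose in hypoxia with DMSO from 33.2 ± 6.02 to 316 ± 58.6 CPM, a log2 fold change of 3.25 with an adjusted p of 5.68e-15. TIPARP, an AHR target too, rose with ITE in normoxia (log2 fold change 1.35, adjusted p 4.77e-05 in edgeR). Of 8 AHR targets listed, 5 could be tested, and CYP1B1 and TIPARP were the 2 called in this comparison. AHRR, UGT1A6 and NQO1 were not called, and the median log2 fold change of the 5 was 0.24. All 6 HIF targets that could be tested (NDRG1, VEGFA, ADM, PFKFB4, BNIP3 and ANKRD37) rose in hypoxia with DMSO. The renal transcription factor PAX8 was between 191 and 476 CPM in every library, while PTPRC, PECAM1 and ALB, markers of leukocytes, endothelium and hepatocytes, reached at most 0.810 CPM. Of the 4 markers of other cell types listed, only COL1A1 passed the filter on low counts. COL1A1 was not called in any comparison. Its log2 fold change was -1.63 with ITE in normoxia (unadjusted p 0.00989 in edgeR) and -1.68 in hypoxia with DMSO (unadjusted p 0.0116 in edgeR). The source of the COL1A1 counts was not tested. Of 7 renal markers 1 was called in any comparison: PAX2 rose with both stimuli against neither, from 28.3 ± 8.16 to 48.7 ± 12.6 CPM (adjusted p 0.037 in edgeR).

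Total counts per library ran from 770094 to 93851342. Hypoxia + ITE replicate 6 stood apart, with a median deviation of 0.677 log2 units from its group's medians against 0.0709 to 0.359 in the other libraries, and its deviations followed the GC content of the genes (Spearman rho across genes 0.676). Hypoxia + DMSO replicate 1 and hypoxia + ITE replicate 3 also had low weights when libraries were weighted by their agreement with the rest (0.252 and 0.173, against 0.0722 in hypoxia + ITE replicate 6 and at least 0.72 in the others). The biological coefficient of variation was 12.7% in normoxia and 29.1% in hypoxia. Some results below that rest on these libraries are also given without them.

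The levels of the genes spanned a wide range. Per kilobase of transcript in normoxia + DMSO, TXNRD1, the cytosolic thioredoxin reductase, had the highest level at 121 ± 15.3 CPM per kilobase, above the range of every other member. NQO1, the quinone reductase, followed at 89.4 ± 7.58 CPM per kilobase, then KEAP1 at 76.2 ± 5.87, SRXN1, which repairs over-oxidised peroxiredoxins, at 66.5 ± 8.25, and NFE2L2 at 63.9 ± 2.53. Neighbours in this run from NQO1 to NFE2L2 overlapped in their ranges. A clear step then separated ME1, the cytosolic malic enzyme that makes NADPH, at 28.1 ± 1.65 CPM per kilobase. HMOX1, which degrades heme, had 19.8 ± 5.65 CPM per kilobase. The glutamate-cysteine ligase subunits were lowest, GCLM, the modifier subunit, at 13.7 ± 2.44 and GCLC, the catalytic subunit, at 10.8 ± 1.04 CPM per kilobase. From ME1 down to GCLC each neighbour again overlapped with the next.

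**Figure D1:**
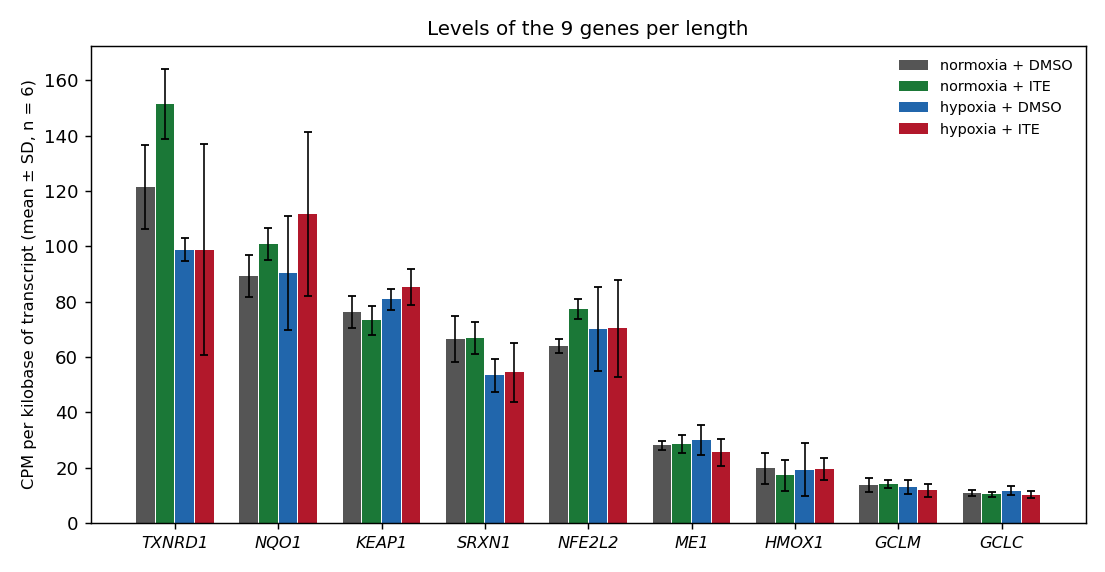
Levels of the 9 genes per kilobase of transcript, as mean CPM per kilobase (vertical axis) with SD over 6 libraries in each of the 4 groups. TXNRD1 is highest in normoxia (121 and 152 CPM per kilobase with DMSO and ITE), and GCLM and GCLC are lowest in every group.

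The 1000 bases before the start of each gene's canonical transcript were searched on both strands for an ARE core, the site that NRF2 binds, taken as TGAC and GCA with any 3 bases between them. It was found in 3 of the 9 members, against 9.28% of 17400 genes searched in the same way. The matches are given from the GRCh37 reference with the core in capitals, 5′ to 3′ on the strand that carries it. That of NQO1 starts at position -455 from the transcript start, lies on the gene's own strand and also holds TGACTCA, the site of AP-1, so that these letters do not tell the factors apart. Those of GCLM (position -35) and GCLC (position -871) lie on the strand opposite to the gene.
NQO1, chr16:69760899-69760928, minus strand: gcagtcacagTGACTCAGCAgaatctgagc
GCLM, chr1:94375002-94375031, plus strand: tggaagacaaTGACTAAGCAgaaatcgtag
GCLC, chr6:53410751-53410780, plus strand: aaatatgtgtTGACAGAGCAatgacctgtc
The dioxin response core written TNGCGTG, to which AHR and ARNT bind, was found in 1 member, NFE2L2, and in 19.1% of all genes searched. It is shown because NFE2L2 was the member with non-overlapping groups under ITE. It starts at position -782 on the gene's own strand.
NFE2L2, chr2:178130221-178130247, minus strand: gcgccatctgTGGCGTGgtggctgcgc
The short core of a hypoxia response element, ACGTG, was found in 4 members (NFE2L2, HMOX1, GCLM and SRXN1), and in 52.0% of all genes. These are matches of letters and no measure of binding.

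The first comparison asked what ITE did in normoxia. NFE2L2 showed the clearest separation. It was at 150, 155 and 167 CPM (lowest, median and highest of 6) with DMSO and at 177, 188 and 202 CPM with ITE. Every ITE library was thus above every DMSO library, which held in this direction for 1 of the 9 members and for 0.477% of all genes tested. This was a log2 fold change of 0.27 (SE 0.144, 95% interval -0.02 to 0.57), with an unadjusted p of 0.0689 and an adjusted p of 1 in edgeR. The percentage of all genes called higher in this comparison was 0.0511%, and none was called lower. CPM values are shares of a library, and RNA per cell and the number of cells carrying it cannot be told apart. When the normoxia groups were fitted without the hypoxia libraries, the estimate was the same to 2 decimals (0.27, SE 0.0533, 95% interval 0.16 to 0.38) and NFE2L2 passed, with an adjusted p of 0.0324. In that fit 0.235% of genes were called higher. It also passed with library quality weights (adjusted p 0.0154; 0.571% of genes called higher) and without the 3 libraries of lowest weight, all of them from hypoxia (adjusted p 0.0487; 0.219% of genes called higher).

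TXNRD1 had the largest estimate of the members here. It was at 412, 454 and 563 CPM with DMSO and at 527, 589 and 659 CPM with ITE, and 1 DMSO library reached into the ITE range. Its log2 fold change was 0.32 (SE 0.19, 95% interval -0.07 to 0.71; unadjusted p 0.103, adjusted p 1 in edgeR). In the fit of the normoxia groups alone the adjusted p was 0.12, and with library quality weights it was 0.0469.

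NQO1, the member best known as an AHR target, was at 207, 217 and 252 CPM with DMSO and at 234, 250 and 275 CPM with ITE, and these groups overlapped. Its log2 fold change of 0.17 (95% interval -0.12 to 0.47) did not pass, and the upper end of that interval lies far below the 2.51 of CYP1B1. HMOX1 had the lowest estimate at -0.17 (95% interval -0.69 to 0.34), with groups that lay almost on top of each other, 18.1 to 40.7 CPM with DMSO and 15.2 to 39.3 CPM with ITE. For KEAP1, GCLC, GCLM, SRXN1 and ME1 the estimates were within 0.08 log2 units of 0. Over the 9 members the median log2 fold change was 0.03, against 0.00 over all genes.

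**Figure D2:**
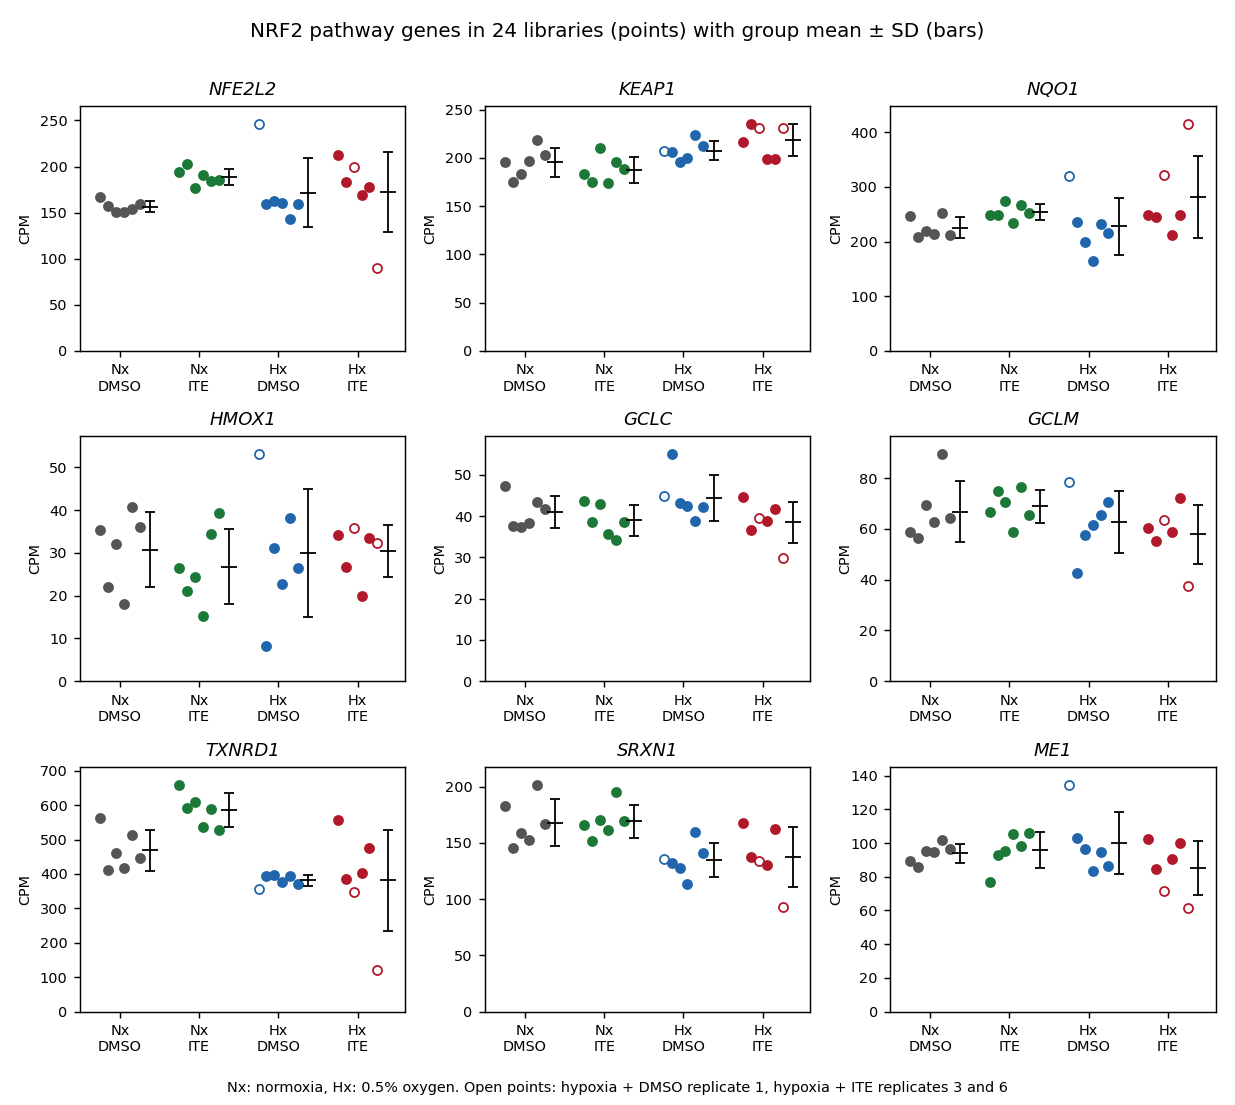
CPM (vertical axes, each from 0) of the 9 genes in every library of normoxia (Nx) and hypoxia (Hx) with DMSO or ITE, with the mean ± SD of each group of 6 beside its points. Open points are the 3 libraries of lowest quality weight, and the normoxia groups of NFE2L2 (150 to 167 and 177 to 202 CPM) do not overlap.

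Hypoxia with DMSO was compared with normoxia with DMSO to see the effect of oxygen alone. SRXN1 had the lowest estimate. It was at 146, 163 and 202 CPM in normoxia and at 113, 134 and 160 CPM in hypoxia, with some overlap. Its log2 fold change was -0.31 (SE 0.122, 95% interval -0.56 to -0.06; unadjusted p 0.0157, adjusted p 0.342 in edgeR). It was the only member with an unadjusted p under 0.05 in this comparison, where 635 genes had such a p in the higher and 476 in the lower direction. Of all genes, 1.16% were called higher and 0.136% lower. SRXN1 passed with library quality weights, with an adjusted p of 0.0233, in a fit that called 2.79% of genes lower.

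TXNRD1 was at 412, 454 and 563 CPM in normoxia and at 355, 385 and 396 CPM in hypoxia, and every hypoxic library was below every normoxic one. That held in this direction for 1 of the 9 members and 0.937% of all genes. The log2 fold change was -0.30 (SE 0.191, 95% interval -0.69 to 0.09; adjusted p 0.666 in edgeR). The SD in hypoxia with DMSO, 16.0 CPM, was the smallest of the 4 groups for TXNRD1, while that in hypoxia with ITE was 147 CPM. All 4 groups share 1 estimate of spread in this test. In the fit of the compared groups alone the interval was -0.49 to -0.12, and the adjusted p was 0.0908.

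HMOX1 is induced by hypoxia through HIF in some cells. Here it was at 18.1, 33.7 and 40.7 CPM in normoxia and at 8.25, 28.8 and 53.1 CPM in hypoxia, so that the hypoxic libraries lay on both sides of the normoxic ones. The log2 fold change was 0.06 (95% interval -0.47 to 0.58), and its sign turned when the highest hypoxic library, hypoxia + DMSO replicate 1, was left out (-0.14). The lowest value rested on 6 counts in the shallowest library, where 3 counts correspond to 3.90 CPM before the TMM factor is applied. NDRG1 rose in the same libraries, as given above. The other 6 members lay between -0.06 and 0.14.

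Hypoxia was also compared with normoxia in the presence of ITE in both. TXNRD1 had the largest difference of any member in any comparison. It was at 527, 589 and 659 CPM in normoxia + ITE and at 122, 394 and 556 CPM in hypoxia + ITE, where the highest library overlapped with normoxia and the lowest, at 122 CPM, was the library that stood apart. The log2 fold change was -0.62 (SE 0.191, 95% interval -1.01 to -0.23; unadjusted p 0.00306, adjusted p 0.0778 in edgeR), which is 0.65-fold. Without hypoxia + ITE replicate 6 the difference was smaller and passed the test, at -0.44 with an adjusted p of 0.0169 (0.534% of genes called lower). It also passed when replicate 1 (-0.75, adjusted p 0.0247; 0.804% of genes called lower) or replicate 5 (-0.70, adjusted p 0.0367; 1.48%) of hypoxia + ITE was left out. DESeq2 (adjusted p 0.0357; 1.47% of genes called lower), library quality weights (adjusted p 0.00627; 1.80%) and leaving out the 3 libraries of lowest weight (-0.38, adjusted p 0.0207; 0.667%) gave the call too. In the fit of the compared groups alone it did not (adjusted p 0.354). Of all genes, 1.89% were called higher and 0.460% lower in this comparison.

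SRXN1 again had lower values in hypoxia, 93.4, 135 and 168 CPM against 152, 168 and 195 CPM. Its log2 fold change of -0.30 (95% interval -0.55 to -0.05; adjusted p 0.159 in edgeR) was close in size to that with DMSO, although these comparisons share no library. The estimate includes hypoxia + ITE replicate 6, the library that stood apart, which had the lowest hypoxic value at 93.4 CPM. The other libraries of that group lay between 131 and 168 CPM, so the closeness in size may depend in part on replicate 6. KEAP1 had higher values, at 174, 186 and 210 CPM in normoxia + ITE and 199, 224 and 235 CPM in hypoxia + ITE. The log2 fold change of KEAP1 was 0.22 (95% interval 0.04 to 0.40; adjusted p 0.157 in edgeR). GCLM was lower by an estimate that did not pass, -0.25 (95% interval -0.54 to 0.04), and it was -0.15 without hypoxia + ITE replicate 6. The median over the 9 members was -0.14, against 0.02 over all genes.

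**Figure D3:**
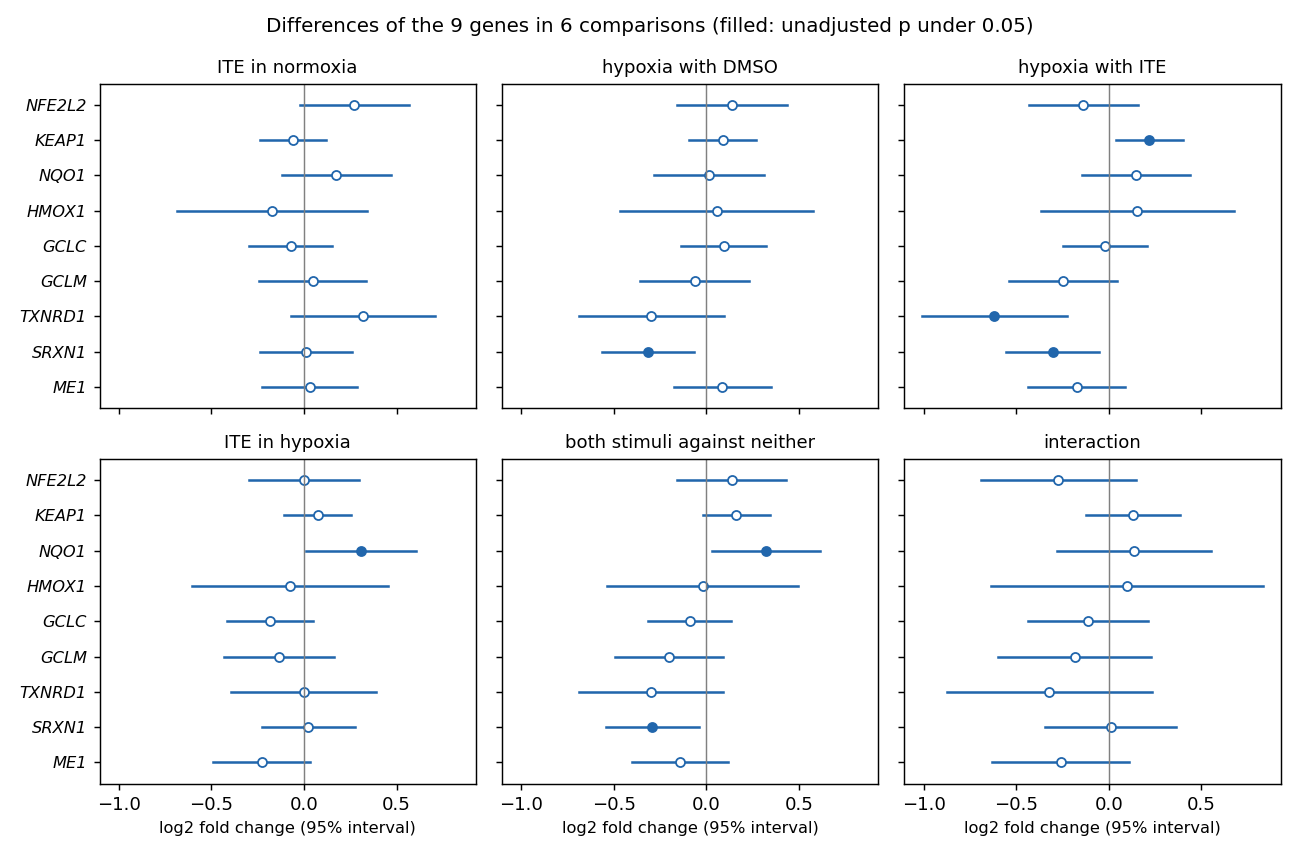
Log2 fold changes (horizontal axis) of the 9 genes with 95% intervals from the edgeR fit on all 24 libraries, in each of the 6 comparisons, with filled points where the unadjusted p is under 0.05. TXNRD1 in hypoxia with ITE (-0.62) lies farthest from 0, and no point passes after adjustment.

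ITE was then compared with DMSO within hypoxia. NQO1 stood highest among the members. It was at 164, 224 and 320 CPM with DMSO and at 212, 249 and 415 CPM with ITE, with broad overlap. Its log2 fold change was 0.31 (SE 0.144, 95% interval 0.01 to 0.60; unadjusted p 0.0413, adjusted p 0.508 in edgeR). The highest ITE library was hypoxia + ITE replicate 6, and without it the estimate was 0.17, as in normoxia to 2 decimals. The percentage of genes called higher was 0.0597%, and none was called lower.

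NFE2L2 and TXNRD1, which had the highest estimates with ITE in normoxia, had estimates at 0.00 in hypoxia. For NFE2L2 the 95% interval was -0.30 to 0.30 and for TXNRD1 it was -0.39 to 0.39, so that differences as large as those in normoxia are within both intervals. NFE2L2 was at 143, 160 and 246 CPM in hypoxia with DMSO and at 89.8, 181 and 212 CPM in hypoxia with ITE. Its coefficient of variation was 21.6% and 25.1% in these groups, against 3.95% and 4.60% in the normoxia groups. Without hypoxia + ITE replicate 6 the estimate was 0.13 for NFE2L2 and 0.18 for TXNRD1. Without the 3 libraries of lowest weight it was 0.23 for both. ME1 (-0.23, 95% interval -0.49 to 0.03) and GCLC (-0.18, 95% interval -0.42 to 0.05) had the lowest estimates and did not pass. For ME1 the estimate was 0.03 without those 3 libraries.

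The interaction tested directly whether the effect of ITE differed between hypoxia and normoxia. None of the 9 genes passed, and none of the 11735 genes did in either direction (0% higher and 0% lower in edgeR, with 290 and 84 genes at an unadjusted p under 0.05). DESeq2 and the fit with library quality weights also called 0 genes. For NFE2L2 the ITE effect differed by -0.27 log2 units between hypoxia and normoxia (SE 0.205, 95% interval -0.69 to 0.15) and for TXNRD1 by -0.32 (SE 0.270, 95% interval -0.87 to 0.23), both with an adjusted p of 0.915 in edgeR. Without hypoxia + ITE replicate 6 both were -0.14. The difference for ME1 was -0.26 (95% interval -0.63 to 0.11) and that for NQO1 was 0.13 (95% interval -0.28 to 0.55).

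With both stimuli against neither, NQO1 was at 212, 249 and 415 CPM against 207, 217 and 252 CPM. The log2 fold change was 0.32 (SE 0.143, 95% interval 0.03 to 0.62; adjusted p 0.212 in edgeR), and it was 0.17 without hypoxia + ITE replicate 6. SRXN1 was lower (-0.29, 95% interval -0.54 to -0.04; adjusted p 0.184 in edgeR), with values of 93.4, 135 and 168 CPM against 146, 163 and 202 CPM. The lowest of these, 93.4 CPM, was again in hypoxia + ITE replicate 6. TXNRD1 had an estimate of -0.30 (95% interval -0.69 to 0.09), which was -0.12 without that library. In this comparison 1.79% of all genes were called higher and 0.528% lower. It shares its control with hypoxia with DMSO and with ITE in normoxia, so these values are not independent of theirs.

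**Figure D4:**
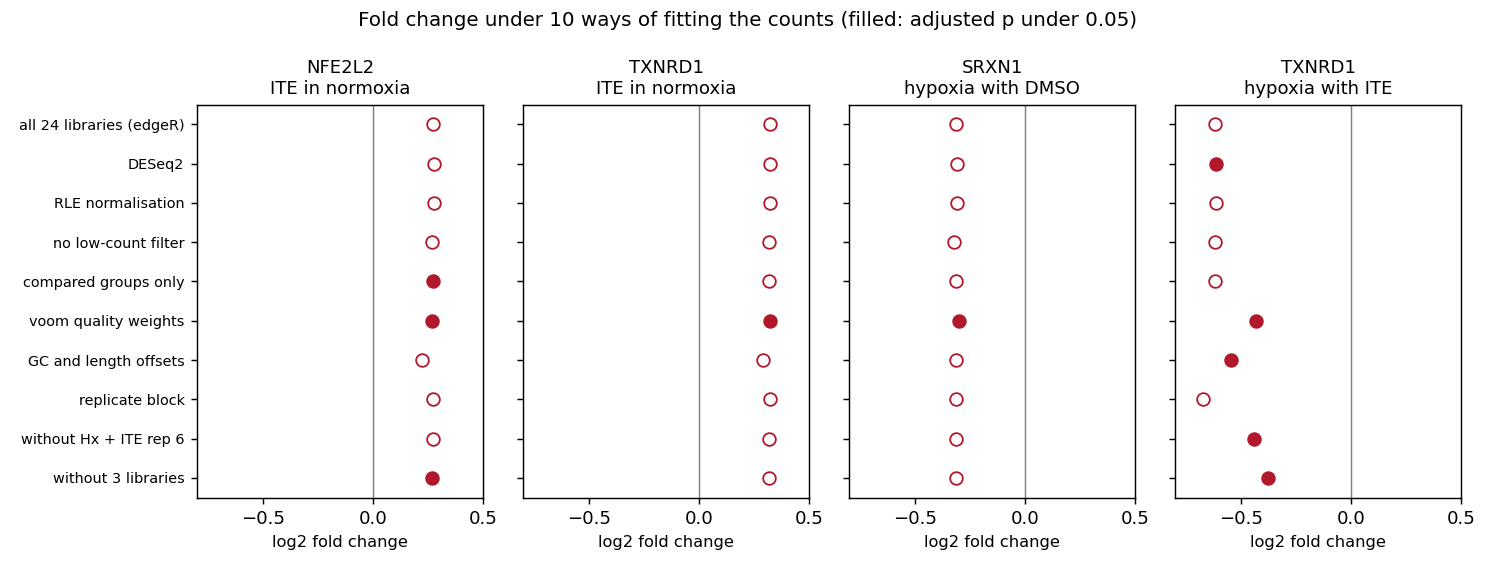
Log2 fold changes (horizontal axis) of NFE2L2 and TXNRD1 with ITE in normoxia, of SRXN1 in hypoxia with DMSO and of TXNRD1 in hypoxia with ITE under 10 ways of fitting the counts (rows), with filled points where the adjusted p is under 0.05. NFE2L2 lies between 0.22 and 0.28 throughout, whereas TXNRD1 in hypoxia with ITE lies between -0.67 and -0.38.

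Beyond these 9, 81 further genes of the pathway were taken from 6 lists: regulators and partners of NRF2, glutathione, thioredoxin and peroxide enzymes, NADPH supply, heme and iron, and carbonyl, quinone and conjugation enzymes. Of these, 71 passed the filter on low counts. None was called with ITE in normoxia, in hypoxia with DMSO, with ITE in hypoxia or in the interaction, where 3, 5, 10 and 2 of the 71 had an unadjusted p under 0.05, against 1.46%, 9.47%, 9.56% and 3.19% of all genes. Of these comparisons, SLC3A2 was called with ITE under some other settings. In hypoxia with DMSO, DESeq2 called GLRX higher, where it called 1.73% of all genes higher. Library quality weights called MAFF and TKT higher there, with 4.37% of all genes. With ITE in normoxia those weights also called GSTP1 higher, with 0.571% of all genes. In hypoxia with ITE 1 rose (1.41% of the 71) and none fell, with 19 at an unadjusted p under 0.05. With both stimuli 2 rose (2.82%) and none fell, with 23 at an unadjusted p under 0.05. Of all genes, 20.1% had such a p in hypoxia with ITE and 19.3% with both stimuli. The counts of called genes moved with the libraries in the fit. The shares of all genes called higher in the same fit are in brackets. In the fit on all libraries they were 1.89% in hypoxia with ITE and 1.79% with both stimuli. In hypoxia with ITE there were 3 higher without hypoxia + ITE replicate 1 (3.71%) and 6 higher without replicate 4 (5.12%). Without replicate 5 there were 6 higher (5.41%) and 1 lower, SLC7A11, where 1.48% of all genes were called lower. There were 0 without replicate 2, 3 or 6 of that group (1.42% to 2.10%). The same held without any 1 of normoxia + ITE replicates 2 to 6 (1.16% to 1.25%). With both stimuli there were 4 without hypoxia + ITE replicate 1 (3.57%), and 6 without replicate 4 (4.22%) or 5 (4.97%). There was 1 without replicate 2, 3 or 6 of hypoxia + ITE or without normoxia + ITE replicate 6 (1.41% to 1.85%). The same held without any 1 of the normoxia + DMSO libraries (1.21% to 1.41%). DESeq2 called 4 higher in hypoxia with ITE (4.27%) and 6 with both stimuli (4.13%). The fit with library quality weights called 2 higher (3.36%) and 2 lower (TRIM16 and OSGIN1) in hypoxia with ITE, where 1.80% of all genes were called lower. It called 3 higher with both stimuli (3.58%). The fit of the compared groups alone called 0 (0.702%) and 0 (0.669%). With GC content and length offsets there were 0 (2.02%) and 1 (2.34%).

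SLC3A2 encodes the heavy chain that carries SLC7A11, the cystine transporter feeding glutathione synthesis, and also other amino acid transporters. It was at 285, 363 and 465 CPM in the control and at 491, 539 and 635 CPM with ITE in normoxia, with no overlap. In hypoxia it was at 301, 358 and 432 CPM with DMSO and at 424, 524 and 803 CPM with ITE, which overlapped slightly. SLC3A2 rose with both stimuli against neither, by a log2 fold change of 0.63 (95% interval 0.34 to 0.92; adjusted p 0.0111 in edgeR). For ITE alone the estimates were almost the same, 0.61 in normoxia (adjusted p 0.176) and 0.64 in hypoxia (adjusted p 0.166), and neither passed. The normoxia difference passed in the fit of the normoxia groups alone (adjusted p 0.0106), in DESeq2 (adjusted p 0.0464), with library quality weights (adjusted p 0.000148), with GC content and length offsets (adjusted p 0.00247) and without hypoxia + ITE replicate 6 (adjusted p 0.0201). The hypoxia difference passed in DESeq2 (adjusted p 0.0232) and without hypoxia + ITE replicate 4 (adjusted p 0.0475). The call with both stimuli held without any 1 library (adjusted p 0.00511 to 0.0416), and it was lost in the fit of the compared groups alone (adjusted p 0.131). SLC7A11 itself had estimates of 0.14 with ITE in normoxia and -0.46 with both stimuli, and did not pass in any comparison of the fit on all libraries.

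GSTP1, an abundant glutathione transferase, rose with both stimuli from 1540 ± 76.3 to 2125 ± 505 CPM (log2 fold change 0.47, adjusted p 0.0384 in edgeR). That call was lost without any 1 of the 6 normoxia + DMSO libraries (adjusted p 0.0606 to 0.0974), normoxia + ITE replicate 6 (0.0503) or hypoxia + ITE replicate 2, 3 or 6 (0.0556 to 0.0831), and after correction for GC content and transcript length the estimate was 0.10. PRDX2, a cytosolic peroxiredoxin, rose in hypoxia with ITE from 12.9 ± 1.63 to 21.9 ± 5.91 CPM (log2 fold change 0.76, adjusted p 0.0342 in edgeR). That call was lost without normoxia + ITE replicate 2, 3, 4, 5 or 6 (adjusted p 0.0569 to 0.092) or hypoxia + ITE replicate 2, 3 or 6 (0.0539 to 0.0679), and after the same correction the estimate was 0.40 with an adjusted p of 0.215.

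In the fit on all libraries the 14 regulators and partners of NRF2 that were tested had no call in any comparison, nor had the 5 genes of NADPH supply, the 8 of heme and iron handling or the 14 carbonyl, quinone and conjugation enzymes. Some were called otherwise: in DESeq2 TKT of the NADPH genes rose in hypoxia with ITE and with both stimuli, and RBX1 of the regulators with both stimuli, while without hypoxia + ITE replicate 4 the carbonyl reductase CBR3 rose in those same comparisons. Of the 13 thioredoxin and peroxide genes, 9 had estimates above 0 in hypoxia with DMSO, against 49.4% of all genes tested. The median of the 13 was 0.20, against 0.00 over all genes tested, and none was called. The median log2 fold change of the NADPH genes was 0.00 with ITE in normoxia, 0.14 in hypoxia with DMSO and 0.32 in hypoxia with ITE, against medians of 0.00, 0.00 and 0.02 over all genes. The value in hypoxia with ITE includes replicate 6, the library that stood apart. BACH1, the repressor that competes with NRF2 for its sites, was at 22.9 ± 1.42 CPM in the control and 24.8 ± 5.27 CPM with ITE in normoxia, and ran from 21.2 to 26.6 CPM in hypoxia with DMSO and from 9.17 to 31.9 CPM in hypoxia with ITE.

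The members did not all move together across libraries, and several correlations changed with hypoxia + ITE replicate 6. Over the 24 libraries the Pearson correlation of log2 CPM was 0.83 between TXNRD1 and SRXN1 and 0.68 between NFE2L2 and TXNRD1. It was -0.42 between NQO1 and TXNRD1 and -0.51 between KEAP1 and TXNRD1. Without hypoxia + ITE replicate 6 these were 0.75, 0.21, 0.20 and -0.44 over 23 libraries. Within the 12 normoxia libraries they were 0.42, 0.79, 0.87 and 0.04. The libraries in each of these share depth, treatment group and base composition effects, so the values are descriptions only. HMOX1 and GCLM had a correlation of 0.47 over the 24 libraries and 0.66 without hypoxia + ITE replicate 6. For NFE2L2 and NQO1 these were -0.096 and 0.66.

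For each member the 3 most alike of the tested genes were found by the same correlation, which lay between 0.782 and 0.943 over the 24 libraries. The closest to TXNRD1 was IL1R1 (0.94), to NFE2L2 SNX10 (0.92), to NQO1 SPHK1 (0.90), to SRXN1 AOX1 (0.89), to GCLM APOBEC3B (0.87) and to HMOX1 ETV4 (0.87). GCLC was closest to CLPX (0.85), ME1 to PAPD4 (0.83) and KEAP1 to NOL3 (0.83). No member was among the 3 most alike of another. When hypoxia + ITE replicate 6 was left out, 8 of the 27 genes named this way were named again.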

How the data were processed

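Per the labels and the study's methods, the authors trimmed reads of polyA RNA (Trim Galore 0.3.3), aligned them to GRCh37 (HISAT2), removed reads that were not uniquely mapped (Picard 2.0.1) and counted reads per gene symbol (HTSeq 0.5.4p3). They deposited raw counts, 1 value per symbol and library, without normalisation. The strand setting of the counting is not given in the sources used here. Groups came from the sample labels, and the study calls the replicates independent.

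From these counts, 11735 of 23106 symbols passed edgeR's filterByExpr (minimum count 10). The 4 group means were estimated jointly from all 24 libraries by edgeR's quasi-likelihood method (R 4.3.3, edgeR 4.0.16, TMM factors), with two-sided p-values adjusted by the Benjamini-Hochberg method. Alternatives used DESeq2 1.42.0 and limma 3.58.1 (voom with quality weights), among others. Log2 CPM for correlations used a prior count of 2. Offsets for GC content and transcript length covered 10653 genes. Floors of 3 counts cover counting error only. The test was tried on simulated data. Transcript starts came from GENCODE lifted to GRCh37.

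The members, gene lists and tests were chosen with earlier results of these data known. All 9 members are named, with list genes past the threshold, up to 4 per list and comparison, and CYP1B1 and NDRG1. BACH1, SLC7A11 and cell type markers were named after their values were seen.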

Additional observations from a re-analysis of the deposited data

Results flagged for a closer look

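NFE2L2 was at 246 CPM in hypoxia + DMSO replicate 1, while the other 5 libraries of that group lay between 143 and 163 CPM. NFE2L2 was at 89.8 CPM in hypoxia + ITE replicate 6, while the other 5 lay between 169 and 212 CPM. In each case 1 library lay far from the rest of its group by Dixon's test, and these were 2 of the 36 groups of 6 examined (9 genes in 4 groups), where chance alone would give about 1.8. Both libraries also had low quality weights over all genes, and the part of this in the NFE2L2 values was not tested.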

How the results depend on the processing

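No member passed in the main fit. With ITE in normoxia, members called higher numbered 1 in the fit of the compared groups only (NFE2L2), 2 with voom and library quality weights (NFE2L2 and TXNRD1; 0.571% of all genes), 2 in the compared groups with the replicate block (0.000411 and 8.45e-05 as adjusted p; 1.39% of all genes) and 1 without the 3 libraries of lowest weight (NFE2L2; 0.219% of all genes). In hypoxia with DMSO, 1 was called lower with quality weights (SRXN1; 2.79% of all genes). In hypoxia with ITE, 1 was called lower, TXNRD1 each time, with DESeq2 (1.47% of all genes), quality weights (1.80%), GC content and length offsets (0.760%), those offsets with the replicate block (1.45%), without hypoxia + DMSO replicate 2 and hypoxia + ITE replicate 6 together (0.685%), without the 3 libraries (0.667%), and in the compared groups without those 3 (0.489%). Leaving out 1 library at a time gave 0 to 1 such calls, with 1 without hypoxia + ITE replicate 1, 5 or 6 (0.804%, 1.48% and 0.534%). The compared groups with the block, and both fits without the 3 libraries, were added after seeing the data. The other counts, 124 under other settings and 285 without single libraries, stayed at 0. The cause of these changes was not tested.

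Some estimates near 0 changed sign. HMOX1 in hypoxia with DMSO was -0.017 with GC content and length offsets, -0.059 with the block besides, -0.036 in the compared groups with the block, -0.089 without the 3 libraries, -0.078 in the compared groups without them, and -0.14 to 0.17 without single libraries. NFE2L2 with ITE in hypoxia was 0.0054 in DESeq2, 0.0061 with RLE, 0.0067 without the filter, 0.0017 in the compared groups, 0.15 with quality weights, 0.11 with offsets, 0.11 with offsets and block, 0.11 without the pair of libraries, 0.23 without the 3, 0.24 in the compared groups without them, and -0.063 to 0.13 without single libraries. TXNRD1 there was 0.0019 in DESeq2, 0.0012 with RLE, 0.0028 without the filter, 0.16 with quality weights, 0.043 with offsets, 0.19 without the pair, 0.23 without the 3, 0.23 in the compared groups without them, and -0.13 to 0.18 without single libraries. ME1 was 0.028 there in both fits without the 3 libraries, and its interaction was 0.0017. The NQO1 interaction ran from -0.0061 to 0.26 without single libraries.

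Replicate numbers are shared by the groups, but whether they pair samples is not stated. Deviations of same-numbered libraries had a mean correlation across genes of 0.237 between normoxia + DMSO and normoxia + ITE (5 of 6 pairs over 0.1; 5 of 6 libraries closest to their own number). It was 0.105 to 0.119 between a normoxia and a hypoxia group and 0.0247 between the hypoxia groups. Differently numbered libraries had lower means in every case, from -0.0496 to 0.00296. Single same-numbered pairs went down to -0.181. As pairing is not stated, the main fit did not take the numbers as pairs, and these values do not exclude it. With the replicate block in the fit of all libraries, 0 members were called in any comparison, and the genes called higher with ITE in normoxia went from 6 to 13. Among the wider genes, that block called SLC3A2 with ITE in normoxia (adjusted p 0.0255) and in hypoxia (0.0303), offsets with the block did so too (4.62e-05 and 0.00497), and GSTP1 with both stimuli was not called under the block (0.0607). In the normoxia groups alone with the block, 5 of 70 wider genes tested were called higher and 1 lower. Of all genes, that fit called 1.39% higher and 0.825% lower. The lowest depth, 770094 counts, limits HMOX1 most.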
